A study of Mus musculus with 7 samples.

Results

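The genes described here encode the red cell membrane skeleton, the band 3 and Rh complexes, blood group proteins, and a few proteins of late red cell development. They were 30 genes chosen by name, and each was read from an array probeset that the platform annotation pairs with exactly 1 gene symbol, with the brightest probeset standing for a gene that had several. In this way 29 of the 30 were measured, of 22180 genes in all. Epb41, the gene of the skeletal protein that ties spectrin and actin to the membrane, was not analysed here. Expression was measured in G1E cells, a GATA1-deficient erythroid line of mouse origin that grows as immature red cell precursors. Control cells with intact Lockd were run on 3 Affymetrix Mouse Gene 2.0 ST arrays, and cells carrying a CRISPR/Cas9 deletion of Lockd, a long non-coding RNA gene, on 4. Both groups share the G1E background and its growth medium. The samples are described as clones of the line, per the design text of the series, and nothing in the labels says which arrays came from separate cultures, so the p-values cover no more than the variation among these 7 samples, part of which may be technical. Deletion takes away DNA together with its transcript, and the groups compared cannot tell these apart.

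The red cell skeleton is a lattice of spectrin tetramers held at short actin filaments, whose ends are capped by adducin and tropomodulin and whose sides carry tropomyosin and dematin. Ankyrin fastens spectrin to band 3, the anion exchanger, and the Rh proteins sit in the same assembly, many of whose surface parts are known as blood group antigens. Erythroid cells use their own spectrin and adducin forms beside paralogues that most cells express. In G1E cells, restoring GATA1 is known to raise many of these genes as the cells mature, so the arrays show them in the immature state.

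The 250 bases upstream of the start are shown for 6 genes, to set GATA words beside the expression values. They are Add2, Kel and Trim58, with an unadjusted limma p under 0.05 between the groups, Add1 as the paralogue of Add2, and Epb42 and Rhd, whose values spread widely between knockout arrays. Dmtn also had such a p, and Slc4a1 spread most, but neither had a start in the RefSeq table used. Sptbn1 spread more than Rhd, with knockout SDs of 0.30 and 0.25, and is not shown. The 6 are examples and not all genes that met these terms. The sequences are from RefSeq on GRCm38.p6 and run 5′ to 3′ on the strand of the gene. Capitals mark the words GATAA and GATAG with A or T in front, 6 letters in all, on either strand.
Add2, chr6:86028431-86028680, plus strand: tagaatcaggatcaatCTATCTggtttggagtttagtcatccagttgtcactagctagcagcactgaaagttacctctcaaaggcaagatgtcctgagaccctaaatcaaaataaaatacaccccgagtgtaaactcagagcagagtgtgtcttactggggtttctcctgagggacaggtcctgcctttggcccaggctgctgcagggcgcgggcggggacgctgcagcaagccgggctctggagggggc
Add1, chr5:34573414-34573663, plus strand: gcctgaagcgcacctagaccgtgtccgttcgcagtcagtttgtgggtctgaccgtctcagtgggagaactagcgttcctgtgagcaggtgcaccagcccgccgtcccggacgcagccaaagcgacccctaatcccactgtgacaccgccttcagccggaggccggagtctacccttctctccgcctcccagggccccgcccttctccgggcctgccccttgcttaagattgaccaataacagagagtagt
Kel, chr6:41704326-41704575, minus strand: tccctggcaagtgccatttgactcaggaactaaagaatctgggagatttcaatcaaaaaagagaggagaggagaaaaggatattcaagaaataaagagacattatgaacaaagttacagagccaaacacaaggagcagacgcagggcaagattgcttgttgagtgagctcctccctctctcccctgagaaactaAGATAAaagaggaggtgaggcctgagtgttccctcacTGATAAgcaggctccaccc
Trim58, chr11:58640215-58640464, plus strand: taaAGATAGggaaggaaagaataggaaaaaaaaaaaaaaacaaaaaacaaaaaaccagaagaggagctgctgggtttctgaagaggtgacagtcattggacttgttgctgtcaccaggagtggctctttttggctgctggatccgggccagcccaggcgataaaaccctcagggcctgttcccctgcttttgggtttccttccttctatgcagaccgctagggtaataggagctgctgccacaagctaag
Epb42, chr2:121036878-121037127, minus strand: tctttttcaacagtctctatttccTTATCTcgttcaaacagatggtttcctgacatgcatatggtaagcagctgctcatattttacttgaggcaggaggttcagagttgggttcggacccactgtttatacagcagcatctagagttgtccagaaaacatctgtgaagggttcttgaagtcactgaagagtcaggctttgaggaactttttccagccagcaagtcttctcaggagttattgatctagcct
Rhd, chr4:134864286-134864535, plus strand: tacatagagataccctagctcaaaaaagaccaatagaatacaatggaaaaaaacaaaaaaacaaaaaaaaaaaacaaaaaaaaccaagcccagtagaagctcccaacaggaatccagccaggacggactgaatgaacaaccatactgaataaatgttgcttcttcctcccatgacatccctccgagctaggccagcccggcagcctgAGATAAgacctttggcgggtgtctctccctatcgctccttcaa
Kel held 2 such words, at 56 and 19 bases before its start, and Add1 held none in this window. The Add2 word lay 234 bases and the Trim58 word 247 bases before the start. Rhd had its word at 43 bases and Epb42 at 226. The RefSeq table listed 25 of the 30 genes with 35 starts, and 16 of these 35 windows, or 45.7%, held a word, against 26.5% of all 32851 windows of the same length. Among the paralogues that most cells express, Add3, Sptbn1 and Tpm3 held a word at 1 or more starts, and Sptan1 held none. Sptb, Tmod1, Xk, Aqp1, Abcg2, Stom, Tspan33 and Bpgm held none either. A match is a description of letters and not a measured binding site.

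Lockd, the targeted gene, checked the labels. It read 7.89, 8.04 and 7.80 on the control arrays and 5.09, 5.15, 4.17 and 5.15 on the knockout arrays, on the log2 scale used throughout, and fell by 3.02 in limma with an adjusted p of 0.0162. Without control replicate 1, 2 or 3 or knockout replicate 1 or 4 the difference was -3.10 to -2.95 with a limma adjusted p of 0.0694 to 0.106. All values are RMA log2 values, the number of arrays limits their precision, and RMA gives no detection call. The adjustment ran over 23521 probesets, and 2 genes passed it in the whole series, or 0.00902%. Control replicate 2 lay farthest from the other arrays in a principal component analysis (component 1, 29.9% of variance). Of 12 erythroid precursor markers 11 were measured, and all 11 were brighter than the median gene. The mean over these 11 ran from 10.87 to 11.01 on control arrays and from 10.88 to 11.00 on knockout arrays. Markers above that median numbered 2 of 10 for mast cells, Cpa3 and Ms4a2, 3 of 7 for megakaryocytes, 1 of 10 for myeloid cells, 0 of 9 for lymphoid cells and 4 of 10 for stromal and endothelial cells. None of these 6 lists had a member with a limma adjusted p under 0.05. The 2 bright mast cell markers varied widely within groups. Cpa3 read 11.97, 9.53 and 11.95 in control and 9.998, 11.48, 10.46 and 9.88 in knockout cells. Ms4a2 read 9.67, 7.55 and 9.99 in control and 10.05, 9.74, 8.07 and 8.81 in knockout cells. Whether this variation bears on the 29 genes was not tested. At an unadjusted limma p under 0.05, where 4.61% of all genes were, Tfrc and Gp9 were lower and Lmo2, Mpo and Tagln higher. These were 2 of 11 erythroid precursor, 1 of 7 megakaryocyte, 1 of 10 myeloid and 1 of 10 stromal and endothelial markers. Of mast cell markers 0 of 10 had such a p, and of lymphoid markers 0 of 9. Mpo and Tagln lay below the median level.

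For most of the membrane and skeleton genes the knockout and control arrays overlapped, which does not show that these genes were unchanged. In limma with Benjamini-Hochberg adjustment 0 of the 29 genes passed, and each had an adjusted p of 0.999. Add2 and Kel were lower and Dmtn and Trim58 higher at an unadjusted limma p under 0.05, which is 4 of 29 or 13.8%, where 4.61% of all genes were, 2.37% lower and 2.24% higher. That count was 2 without control replicate 1, control replicate 2 or knockout replicate 2, and 1 without knockout replicate 3, where Add2 remained. The genes were chosen with earlier results of these data known, and how far that choice shaped the share of 13.8% was not tested. Over the 29 genes, 19 were lower in knockout cells and 10 higher, with a median difference of -0.07, while 47.8% of all genes were lower with a median difference of 0.01. Without knockout replicate 2 the median was -0.01, with 16 of the 29 lower. The 95% intervals of the 29 genes ran between -0.90 and 0.74. All but Sptan1 and Trim58 were brighter than the median gene.

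**Figure D1:**
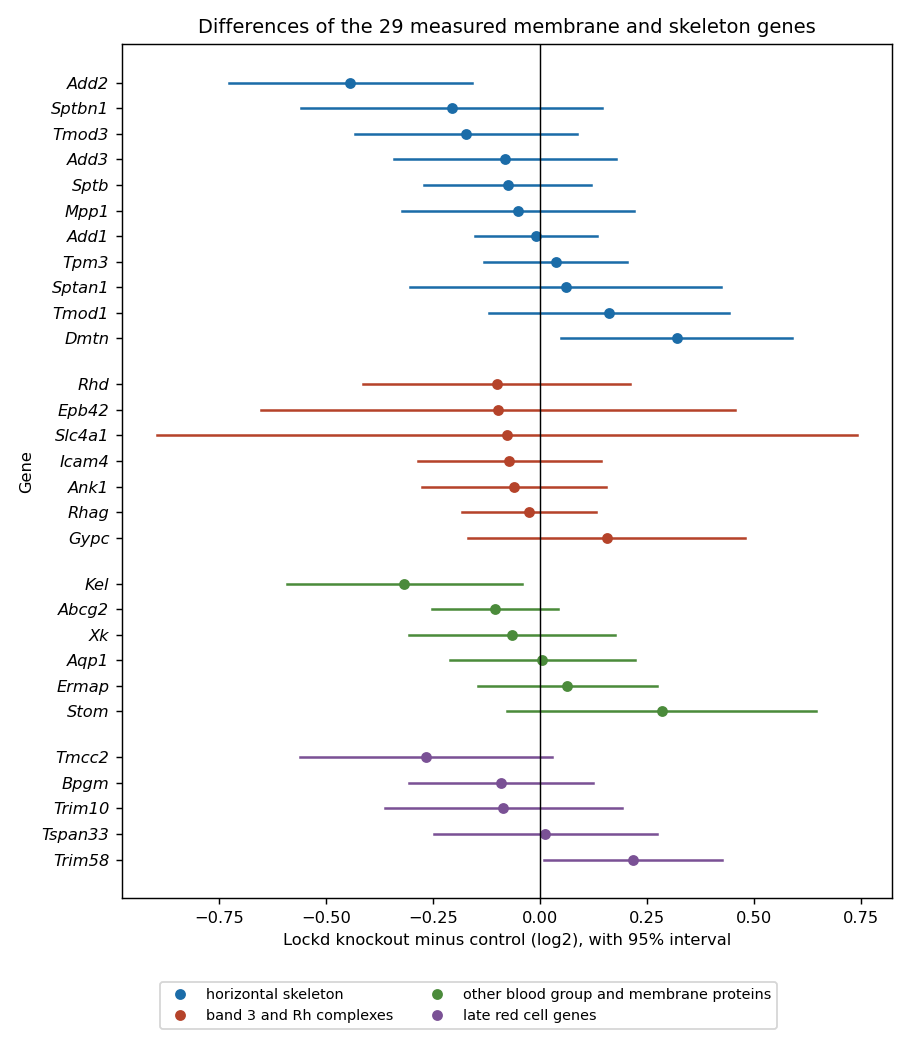
Difference between knockout and control cells on the log2 scale for each of the 29 measured genes, with its 95% interval from limma, coloured by role and sorted within each role. The intervals of Add2, Kel, Dmtn and Trim58 lie to one side of 0, and that of Slc4a1 is the widest.

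The skeleton held the largest difference of either sign. Add2, the beta adducin subunit that caps the growing ends of junctional actin filaments, read 11.32, 11.05 and 10.97 in control cells and 10.90, 10.56, 10.74 and 10.47 in knockout cells, each in the order of the replicate numbers, as throughout. All 4 knockout arrays lay below the controls, by a narrow gap at knockout replicate 1. The control mean was 11.11 ± 0.19 (SD, n = 3) and the knockout mean 10.67 ± 0.19 (SD, n = 4). They differed by -0.44 (SE 0.12, 95% interval -0.73 to -0.16), or -26.5% on the linear scale. Its unadjusted limma p was 0.00664 and stayed under 0.05 in all 16 alternatives run, with differences from -0.52 to -0.34, but the adjusted p did not pass.

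Dmtn, which encodes the actin-bundling protein dematin, ran the other way. It read 6.68, 6.34 and 6.63 in control and 7.09, 6.70, 6.90 and 6.77 in knockout cells, and the groups did not overlap. The difference was 0.32 (SE 0.12, 95% interval 0.05 to 0.59), with an unadjusted limma p of 0.0256. That p was under 0.05 in 13 of 16 alternatives and not without knockout replicate 1 (0.0605) or 3 (0.0539) or control replicate 2, its lowest array (0.0991, with a difference of 0.21). Dmtn and Add2 both sit at the actin junction of the skeleton, and their differences had opposite signs. Over the 29 genes the groups did not overlap for 2 lower genes, Add2 and Abcg2, and 1 higher, Dmtn, where 5.19% of all genes were apart, 2.54% as lower and 2.65% as higher.

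The rest of the skeleton differed less. Sptb, the erythroid beta spectrin, read 11.15, 11.19 and 11.14 in control and 11.12, 10.91, 11.24 and 11.06 in knockout cells, a difference of -0.08 (SE 0.09). Its knockout arrays lay on both sides of the controls. Mpp1, a palmitoylated scaffold that binds glycophorin C, differed by -0.05 (SE 0.12), by 0.08 without control replicate 3 and by -0.13 without control replicate 2. Tmod1, the tropomodulin of red cells that caps slow-growing actin ends, read 6.52, 6.19 and 6.58 in control and 6.61, 6.36, 6.73 and 6.68 in knockout cells. The groups overlapped, with a difference of 0.16 (SE 0.12) that was 0.04 without control replicate 2.

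The widely expressed forms were Add1, Add3, Tmod3, Tpm3, Sptan1 and Sptbn1, and 0 of these 6 had an unadjusted limma p under 0.05, against 4 of the other 23 and 4.61% of all genes. Whether the groups of genes differ in this was not tested. Add1, the alpha adducin shared by red cells and other tissues, varied little, at 10.03, 10.005 and 10.02 in control and 10.02, 10.02, 10.07 and 9.93 in knockout cells. Its difference was -0.01 (SE 0.06, 95% interval -0.15 to 0.13). Add3, which encodes gamma adducin, read 10.19, 10.30 and 9.89 in control and 10.01, 10.22, 9.94 and 9.998 in knockout cells, a difference of -0.08 (SE 0.11). Control replicate 3 was the lowest of all arrays for Add3, whose difference was -0.20 without it and 0.00 without control replicate 2.

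Tmod3, the tropomodulin found in most cells, read 10.31, 10.41 and 10.05 in control and 10.14, 10.22, 9.86 and 10.12 in knockout cells, a difference of -0.17 (SE 0.11). Sptbn1, the non-erythroid beta spectrin, read 9.17, 9.11 and 9.33 in control and 9.22, 9.28, 8.66 and 8.83 in knockout cells. Knockout replicates 3 and 4 were low for Sptbn1 and knockout replicates 1 and 2 lay among the controls. The difference of -0.21 (SE 0.15) was -0.10 without knockout replicate 3. Sptan1, the non-erythroid alpha spectrin, differed by 0.06 (SE 0.16), by -0.12 without control replicate 2 and by 0.18 without control replicate 3. Tpm3, a tropomyosin, differed by 0.04 (SE 0.07). The other probeset of Tpm3 also differed by 0.04.

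Pairs of related genes were compared within each array, since a difference between 2 genes of the same array does not depend on that array's overall level. The pairs, too, were chosen with earlier results of these data known. Add2 relative to Add1, set to 0 at the control mean, read 0.20, -0.05 and -0.15 in control and -0.21, -0.55, -0.42 and -0.56 in knockout cells. All 4 knockout arrays lay below the controls, and the shift was -0.44 (SE 0.13). The exact two-sided permutation test over 35 splits gave p = 0.0571, and 0.286 with Benjamini-Hochberg adjustment over the 5 pairs. The smallest p this design allows is 0.0286, so after adjustment over the 5 pairs a single pair could not pass 0.05 alone. Add2 relative to Add3 shifted by -0.36 (SE 0.18, exact permutation p = 0.171, adjusted 0.429), with 2 of 4 knockout arrays below the controls.

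For the other pairs the groups overlapped. Tmod1 relative to Tmod3 shifted by 0.33 (SE 0.26, exact permutation p = 0.257, adjusted 0.429). Sptb relative to Sptbn1 shifted by 0.13 (SE 0.22, exact permutation p = 0.629, adjusted 0.629), and by -0.03 without knockout replicate 3. Rhd relative to Rhag shifted by -0.08 (SE 0.14, exact permutation p = 0.571, adjusted 0.629), and by 0.01 without control replicate 2. No pair passed, which a single pair could not have done alone, and these errors leave room for shifts of the size seen for Add2.

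**Figure D2:**
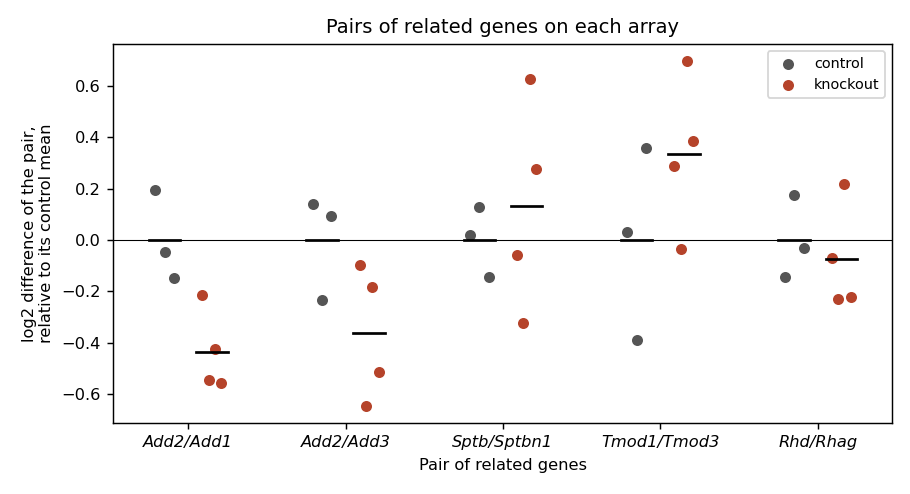
Log2 difference between the 2 genes of each pair on every array, relative to its mean over control arrays; points are arrays and short lines are group means. For Add2/Add1 the 4 knockout arrays lie below the control arrays, and for the other pairs the groups overlap.

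Genes of the band 3 and Rh complexes were 6 lower and 1 higher, with a median difference of -0.07, and 0 of the 7 had an unadjusted limma p under 0.05. Of all genes 47.8% were lower, and 4.61% had such a p. The count leaned on knockout replicate 2, the lowest knockout array for 5 of the 7, against 24.8% of all genes. Without it Slc4a1, Epb42 and Rhag differed by 0.15, 0.10 and 0.0005, while Ank1, Rhd and Icam4 stayed lower. Slc4a1, which encodes band 3 itself, read 7.48, 8.67 and 8.34 in control and 7.996, 7.40, 8.84 and 8.11 in knockout cells. Arrays of the same group were more than a log2 unit apart in both groups, and the difference was -0.08 (SE 0.36, 95% interval -0.90 to 0.74). It was -0.42 without control replicate 1 and 0.18 without control replicate 2. Epb42, whose protein binds band 3 and ankyrin, was even in control cells at 7.84, 7.71 and 7.97 and uneven in knockout cells at 7.86, 7.16, 8.37 and 7.59. Its difference of -0.10 (SE 0.24) was -0.31 without knockout replicate 3 and 0.10 without knockout replicate 2.

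Ank1, the erythroid ankyrin, differed by -0.06 (SE 0.09), and by 0.01 without control replicate 2. Its other probeset also differed by -0.06. Rhag, the Rh-associated glycoprotein, was tight at 11.57, 11.50 and 11.64 in control and 11.60, 11.46, 11.58 and 11.53 in knockout cells, a difference of -0.03 (SE 0.07). Rhd, which carries the Rh antigens, read 8.20, 8.44 and 8.38 in control and 8.30, 8.01, 8.57 and 8.08 in knockout cells, a difference of -0.10 (SE 0.14). It was -0.21 without knockout replicate 3 and -0.02 without knockout replicate 2. Rhd varied more between knockout arrays than Rhag, with SDs of 0.25 and 0.06. Icam4, the adhesion molecule of the Landsteiner-Wiener group, differed by -0.07 (SE 0.09). Gypc, the gene of glycophorin C, differed by 0.15 (SE 0.14), by 0.00 without control replicate 3 and by 0.31 without control replicate 2.

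Among the other blood group and membrane proteins, Kel had the most negative difference. Kel encodes the Kell endopeptidase and read 8.94, 8.78 and 8.56 in control and 8.68, 8.41, 8.40 and 8.28 in knockout cells. Knockout replicate 1 lay within the control range and the other knockout arrays below it. The difference was -0.32 (SE 0.12, 95% interval -0.59 to -0.04) with an unadjusted limma p of 0.0281. That p was under 0.05 in 10 of 16 alternatives, and 0.0572 to 0.115 without control replicate 1 or 2 or knockout replicate 2, 3 or 4, and 0.133 without knockout replicates 2 and 3 together. The difference was -0.23 without control replicate 1. Xk, the membrane partner to which Kell is joined by a disulfide bond, differed by -0.07 (SE 0.11), and by 0.02 without control replicate 2. Abcg2, the transporter of the Junior group, read 9.36, 9.29 and 9.33 in control and 9.15, 9.18, 9.27 and 9.28 in knockout cells. The groups of Abcg2 did not overlap, yet the difference was small at -0.11 (SE 0.06, unadjusted limma p 0.140).

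Stom, the gene of the integral membrane protein stomatin, had a control mean of 8.94 ± 0.35 (SD, n = 3) and a knockout mean of 9.22 ± 0.16 (SD, n = 4). Its difference of 0.28 (SE 0.16) was 0.09 without control replicate 1, which read 8.54. Ermap, the Scianna antigen gene, differed by 0.06 (SE 0.09), and Aqp1, the water channel of the Colton group, by 0.00 (SE 0.09). For Aqp1 it was -0.09 without control replicate 2 and 0.07 without control replicate 3.

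**Figure D3:**
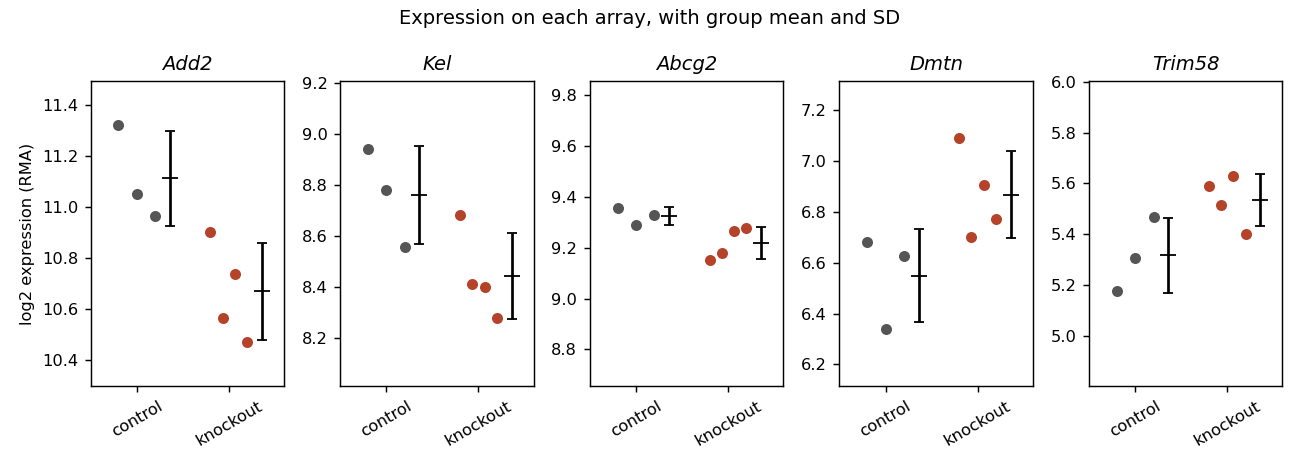
RMA log2 expression of the 5 genes with an unadjusted limma p under 0.05 or with groups that did not overlap; points are arrays, bars are the group mean and SD, and each panel spans the same range of log2 units. Knockout arrays lie below all controls for Add2 and Abcg2 and above them for Dmtn, and the groups overlap for Kel and Trim58.

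Genes of late red cell development were 3 lower and 2 higher, where 47.8% of all genes were lower. Trim58, a ubiquitin ligase gene known from the enucleation of erythroblasts, read 5.18, 5.31 and 5.47 in control and 5.59, 5.52, 5.63 and 5.40 in knockout cells. Knockout replicate 4 lay within the control range and the other knockout arrays above it. The difference was 0.22 (SE 0.09, 95% interval 0.01 to 0.43) with an unadjusted limma p of 0.0424, at a level below the median of all genes. That p was under 0.05 in 5 of the 15 alternatives that gave Trim58 a value, and 0.164 without control replicate 1, with a difference of 0.15. Trim10, another ubiquitin ligase gene of erythroid differentiation, differed by -0.09 (SE 0.12).

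Tmcc2, which encodes a coiled-coil membrane protein, differed by -0.27 (SE 0.13, unadjusted limma p 0.0704), and by -0.13 at its dimmer probeset. Bpgm, the mutase that makes the bisphosphoglycerate bound by hemoglobin, differed by -0.09 (SE 0.09). It was -0.02 without knockout replicate 1. Tspan33, an erythroid tetraspanin gene, differed by 0.01 (SE 0.11), and by 0.06 without control replicate 2.

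Several of these genes shared their lowest and highest knockout array. Knockout replicate 3 was the highest knockout array for 14 of the 29 genes, or 48.3%, against 24.6% of all genes and 29.97% of those above the median level. Knockout replicate 2 was the lowest for 13, or 44.8%, against 24.8% and 21.4%. For 8 genes both held, Sptb, Tmod1, Mpp1, Slc4a1, Epb42, Rhd, Stom and Trim10, which is 27.6% against 7.79% of all genes. These counts describe 4 arrays and carry no test, and genes on the same arrays are not independent.

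From knockout replicate 2 to knockout replicate 3, Slc4a1 spanned 1.44 and Epb42 1.21 log2 units. Their knockout SDs of 0.59 and 0.51 stood at the 99.6th and 99.4th percentile of all genes. Rhd spanned 0.56 and Trim10 0.50, while Sptb spanned 0.34, Tmod1 0.37, Mpp1 0.29 and Stom 0.37. The pattern was seen in 0 of the 6 widely expressed forms and in 3 of the 55 other membrane and skeleton genes described last. Among the marker lists it was seen in 3 of 11 erythroid precursor genes, 2 of 9 lymphoid, 2 of 10 myeloid, 1 of 7 megakaryocyte, 1 of 10 mast cell and 0 of 10 stromal and endothelial genes. The part of these markers in it was not tested. Control arrays differed too. Between the highest and lowest control array Slc4a1 spanned 1.19 log2 units, Stom 0.65, Mpp1 0.43, Tmod1 0.39, Epb42 0.26, Rhd 0.25, Trim10 0.22 and Sptb 0.05. For Stom, Mpp1 and Tmod1 that was more than the span between knockout arrays.

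**Figure D4:**
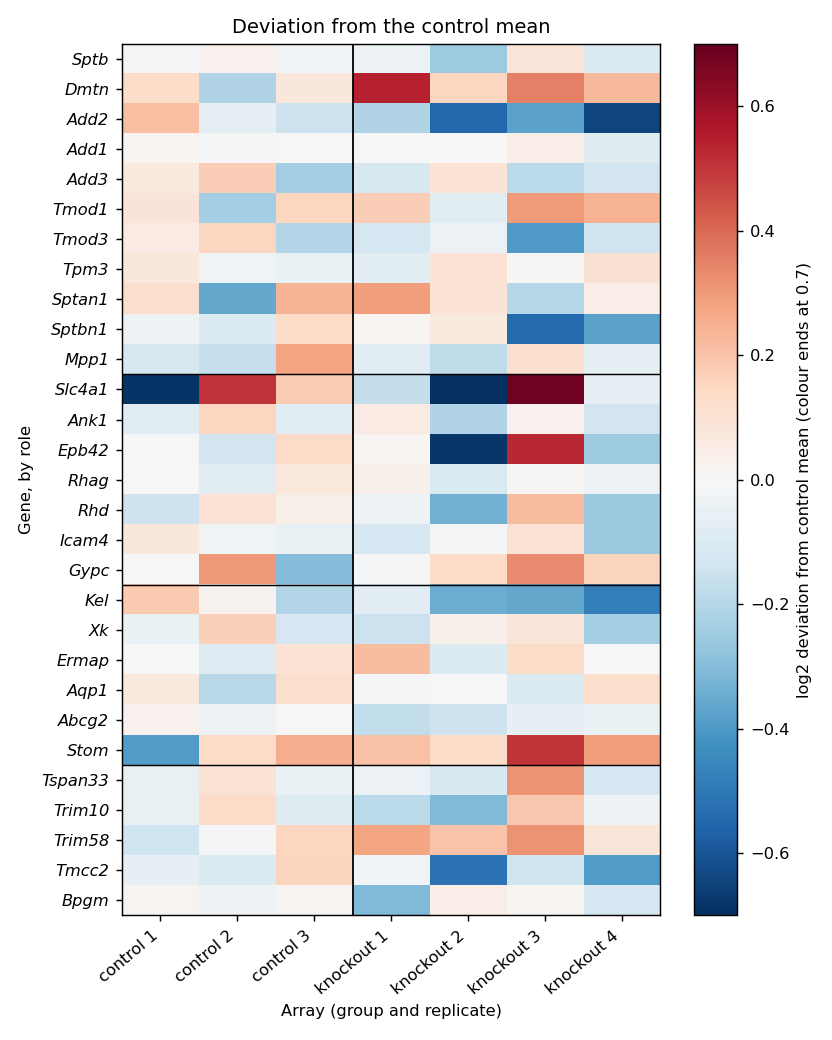
Deviation of each array from the control mean on the log2 scale for the 29 genes, with arrays in columns and genes in rows by role; red is higher and blue lower. Slc4a1 and Epb42 are low on knockout replicate 2 and high on knockout replicate 3, and Add2 is below the control mean on all 4 knockout arrays.

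Other genes of the membrane and skeleton were read from a list of 59, also chosen with earlier results of these data known, of which 55 were measured. In limma 0 of the 55 passed, and 4 or 7.27% had an unadjusted p under 0.05, 2 lower and 2 higher, against 4.61% of all genes, 2.37% lower and 2.24% higher. The groups did not overlap for 4 lower genes, Mpp2, Slc2a1, Bsg and Rac1, and 1 higher, Tpm1, where 2.54% of all genes were apart as lower and 2.65% as higher. Bsg differed by -0.11, Rac1 by -0.04 and Tpm1 by 0.16, and these 3 were named after their values were seen. Mpp2, a paralogue of Mpp1, read 8.07, 8.09 and 7.95 in control and 7.70, 7.74, 7.72 and 7.62 in knockout cells. The groups did not overlap, and the difference was -0.35 (SE 0.07) with an adjusted limma p of 0.855. Slc2a1, the glucose transporter that binds adducin and dematin in human red cells, differed by -0.37 (SE 0.11), also without overlap. The mean over the 2 probesets of Slc2a1 differed by -0.26. Slc14a1, the urea transporter of the Kidd group, differed by 0.37 (SE 0.12), and Myh10, a non-muscle myosin heavy chain gene, by 0.31 (SE 0.11) at a low level. Without control replicate 2 they differed by 0.28 and 0.26, with an unadjusted limma p of 0.0626 and 0.0666. For Myh10 that p was 0.0778 without control replicate 1. Slc2a1, Slc14a1 and Myh10 each had an adjusted limma p of 0.999. The median over the 55 genes was -0.02, with 31 lower and 24 higher, where 47.8% of all genes were lower.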

How the data were processed

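The authors deposited log2 expression values of 7 arrays. They came from RMA, run with the Affymetrix Expression Console software per the submitters' processing notes. RMA corrects background, sets arrays to a common distribution and summarises each probeset. No software version or genome build is given in the sources used here. Groups came from the sample titles.

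Of 41345 probesets, 23521 had exactly 1 symbol in the platform annotation and were tested, covering 22180 genes. It gave several symbols for 1814 and did not list 16010. Differences are knockout minus control, fitted in R 4.3.3 with limma 3.58.1 (lmFit, eBayes, two-sided, no filter or covariate), with Benjamini-Hochberg adjustment and a threshold of 0.05. Called means past that threshold. Intervals are at 95%. The fit was tested on simulated data with planted changes larger than any difference of the members, so that test does not cover changes of their size. Pairs of genes were tested by exact permutation, with splits counted by the size of the difference. Per-array values were given for members at an unadjusted p under 0.05 or without overlap and for the pairs. Slc4a1, Epb42 and Mpp2 were added after their values were seen. The members, pairs and lists were chosen with earlier results of these data known.

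Arrays with the same number in the sample titles had deviations correlated at 0.02, 0.06 and -0.10. The sample descriptions instead number the knockout arrays 2 to 5, and by those numbers the 2 shared pairs correlated at -0.17 and -0.10, so neither numbering was treated as pairs. Alternatives were leaving out each array, a replicate block, all probesets, brighter probesets, another quantile normalization, median centring, a trended robust prior, array weights, and the mean over a gene's probesets. Leaving out knockout replicates 2 and 3 together was added after seeing the data.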

Additional observations from a re-analysis of the deposited data

Results flagged for a closer look

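Lockd read 4.17 on knockout replicate 3, while the other knockout arrays lay between 5.09 and 5.15, a gap wide for 4 arrays by Dixon's criterion at 95%, which chance meets in about 1 of 20 groups. None of the 29 membrane and skeleton genes met it in the knockout group, and the 3 control arrays are too few for it.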

How the results depend on the processing

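In limma 0 of the 29 genes passed, as reported and in all 16 alternatives. Those at an unadjusted limma p under 0.05 numbered 1 to 6 when single arrays were left out, 2 without knockout replicates 2 and 3, an alternative added after seeing the data, and 3 to 5 in the others, with 4 in the fit with the replicate block. The block changed no call among the 29 genes. The same-numbered arrays share only a number. The block fit used replicates 1 to 3 of both groups and gave a median difference of -0.04, as did leaving out knockout replicate 4 alone. The median difference ran from -0.10 to -0.01 when single arrays were left out, lowest without knockout replicate 3 and highest without knockout replicate 2. Leaving out single arrays gave -0.51 to -0.34 for Add2 relative to Add1, -0.48 to -0.27 for Add2 relative to Add3, 0.14 to 0.51 for Tmod1 relative to Tmod3, -0.035 to 0.28 for Sptb relative to Sptbn1, which turned to -0.035 without knockout replicate 3, and -0.17 to 0.011 for Rhd relative to Rhag, which turned to 0.011 without control replicate 2. The differences of Add2, Kel, Abcg2, Dmtn and Trim58 kept their sign in every alternative that gave a value. These 5 were picked from the same data by their unadjusted p or lack of overlap, so a kept sign is no separate support. For Add2, Abcg2 and Dmtn, whose groups did not overlap, leaving out arrays could not turn the sign. Of the other 24 genes, 11 changed sign at least once. Sptan1 and Trim58 gave no value with brighter probesets only. Lockd lost its call without each control array or knockout replicate 1 or 4, with all probesets tested and in the block fit. Dim probesets such as that of Trim58 may understate a difference. RMA gives no detection call, and whether the level of Trim58 stood above background was not tested.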

Other observations

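The 3 lower genes among those with an unadjusted limma p under 0.05 or without overlap, Add2, Kel and Abcg2, all belong to chromosome 6, which also holds Lockd. This was noticed after the values were seen, and no test was made of it. Of the 29 genes, 6 belong to that chromosome, and the others, Aqp1, Bpgm and Tspan33, differed by 0.00, -0.09 and 0.01. Over the 1208 genes of chromosome 6 the median difference was 0.01, 45.3% were lower and 4.47% had an unadjusted limma p under 0.05.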
